A study of Homo sapiens with 16 samples.

Results

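The catenins and their partners at the adherens junction were followed as 10 genes in the human colon adenocarcinoma line SW480. The genes were those whose GENCODE symbol was CTNNB1, JUP, CTNND1, CTNNA1, CTNNAL1, VCL, AFDN, NECTIN1, NECTIN2 or NECTIN3. All 10 were found among the 66023 genes of the count table, and all 10 had enough reads for testing in every comparison. The rule that picks them is their names and no measured value.

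The study asked how changes in Ajuba, a LIM domain protein, alter the transcriptome of colon cancer cells, and sequenced mRNA from 16 samples of 6 lines that are all SW480. Parental cells were unmodified (n = 2). ShScrambled cells carried a non-mammalian control shRNA in the pLKO.1-puro vector (n = 2), and shAjuba1 (n = 3) and shAjuba2 (n = 3) cells each carried an shRNA against AJUBA, directed at its coding and at a non-coding region. Ajuba OE cells (n = 3) carried a lentiviral Ajuba construct whose plasmid name gives a CMV promoter and FLAG and HA tags, and Control cells (n = 3) carried that construct with the Ajuba sequence removed. The 5 transduced lines were selected with puromycin, and Parental cells carried no vector. Each line stands for 1 modification of 1 cell line, and the paper calls the replicates technical. The p-values below therefore measure only the spread between samples of a line, which may be technical.

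Classical cadherins hold neighbouring epithelial cells together, and the catenins tie the cadherin tails to the actin cytoskeleton. β-Catenin (CTNNB1) or its close relative plakoglobin (JUP) binds the distal part of the tail, p120-catenin (CTNND1) binds near the membrane, and α-catenin (CTNNA1) links β-catenin to actin with vinculin (VCL). Nectins are immunoglobulin-like adhesion molecules of the same junction, and afadin (AFDN) connects them to actin. Ajuba binds α-catenin and is found at these junctions, β-catenin is also the transcriptional effector of Wnt signalling, and plakoglobin is shared with desmosomes.

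In the GENCODE annotation on hg38, CTNNB1 lies on chromosome 3 from 41194741 to 41260096 (plus strand) and JUP on chromosome 17 from 41754604 to 41786931 (minus strand). CTNND1 lies on chromosome 11 from 57753243 to 57819546 (plus strand), CTNNA1 on chromosome 5 from 138610967 to 138935034 (plus strand) and CTNNAL1 on chromosome 9 from 108942569 to 109013522 (minus strand). VCL spans 73995193 to 74121363 of chromosome 10 (plus strand) and AFDN spans 167826893 to 167972023 of chromosome 6 (plus strand). NECTIN1 lies on chromosome 11 from 119623408 to 119729200 (minus strand), NECTIN2 on chromosome 19 from 44846175 to 44889223 (plus strand) and NECTIN3 on chromosome 3 from 111070071 to 111275563 (plus strand). These are whole gene spans, and reads were counted on exons.

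The exon models of JUP, CTNNB1, CTNNAL1, AFDN and NECTIN3 shared no base with those of another annotated gene. Of the merged exon bases of CTNND1, 39.1% were shared with overlapping genes on the same strand. Of the 50-base windows of its canonical transcript 77.1% also occurred in another gene, but only 0.181% in a gene that does not overlap it. The overlapping gene ENSG00000254732 shared 1926 exon bases and had 8 to 29 counts per sample. ENSG00000288534 shared 5952 exon bases and was not in the count table. How reads on the shared bases were counted was not checked, so the level of CTNND1 is uncertain. Exons of AP3M1 on the opposite strand covered 11.1% of the exon bases of VCL, and the opposite-strand share was 5.89% in CTNNA1, 3.42% in NECTIN2 and 1.89% in NECTIN1. The libraries were stranded, but the counting options given in the methods name no strand setting, so reads of such partners may not have been told apart.

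Promoter windows of 300 bases around annotated starts were read from RefSeq (GRCh38.p14) for 8 of the 10 genes. CTNND1 and NECTIN1 were not matched. The windows shown belong to JUP, which fell in shAjuba1, and to CTNNAL1 and NECTIN2, which rose there. They were searched on both strands for the E-box CAGGTG, the TEAD motif GGAATG and the TCF/LEF motif ATCAAAG, and matches are in capitals. The first JUP window (chr17:41786662-41786961, minus strand) covers the start of the canonical transcript, and the other (chr17:41785927-41786226, minus strand) lies downstream of it within the gene. The CTNNAL1 window is chr9:109013450-109013749 (minus strand) and the NECTIN2 window is chr19:44846047-44846346 (plus strand).
JUP, canonical start: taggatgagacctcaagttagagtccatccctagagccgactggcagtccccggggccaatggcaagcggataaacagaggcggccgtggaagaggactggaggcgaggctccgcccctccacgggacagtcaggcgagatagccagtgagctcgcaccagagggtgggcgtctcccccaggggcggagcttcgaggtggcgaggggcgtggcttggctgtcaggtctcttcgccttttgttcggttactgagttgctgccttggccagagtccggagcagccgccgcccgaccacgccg
JUP, downstream start: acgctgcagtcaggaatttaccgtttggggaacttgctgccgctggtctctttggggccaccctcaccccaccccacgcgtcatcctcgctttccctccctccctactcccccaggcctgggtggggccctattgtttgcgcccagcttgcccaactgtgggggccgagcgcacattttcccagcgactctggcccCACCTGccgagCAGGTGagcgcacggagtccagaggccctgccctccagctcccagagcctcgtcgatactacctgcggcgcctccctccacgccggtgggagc
CTNNAL1: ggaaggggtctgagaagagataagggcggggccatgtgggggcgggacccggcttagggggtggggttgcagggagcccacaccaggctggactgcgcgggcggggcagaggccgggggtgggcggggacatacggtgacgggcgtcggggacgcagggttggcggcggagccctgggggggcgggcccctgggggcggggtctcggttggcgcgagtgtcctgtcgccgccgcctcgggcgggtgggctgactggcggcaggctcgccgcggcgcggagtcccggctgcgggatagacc
NECTIN2: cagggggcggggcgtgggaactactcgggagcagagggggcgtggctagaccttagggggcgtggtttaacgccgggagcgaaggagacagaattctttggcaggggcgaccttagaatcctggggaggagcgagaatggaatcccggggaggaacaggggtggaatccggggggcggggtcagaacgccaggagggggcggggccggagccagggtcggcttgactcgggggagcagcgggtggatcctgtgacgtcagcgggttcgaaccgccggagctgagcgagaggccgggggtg

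The downstream JUP window held 2 E-boxes, which start 54 and 43 bases before its annotated start, and the window at the canonical start held none of the 3 motifs. The CTNNAL1 and NECTIN2 windows also held none. Among the windows not shown, AFDN held 4 E-boxes, VCL held a TEAD motif 171 bases before its start, and 2 overlapping windows of CTNNA1 held the same TCF/LEF motif. Of all 35116 RefSeq windows of this length, 20.6% held the E-box, 14.0% the TEAD motif and 2.62% the TCF/LEF motif. A match of these letters is a description of the window and does not show that a factor binds there.

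Between 30132396 and 69684675 read pairs were counted per sample, and NECTIN3, the lowest of the 10 genes, had 63 to 178 counts. Levels are given as RPM, the count of a gene per 1000000 counts of its sample. AJUBA was read first as a check of the labels. It was at 83.4 and 81.6 RPM in shScrambled, at 49.6, 47.3 and 53.5 RPM in shAjuba1 and at 60.3, 68.6 and 57.1 RPM in shAjuba2. In Control it was at 89.6, 100.5 and 89.4 RPM, against 549.7, 462 and 566 RPM in Ajuba OE, where reads of the construct and of the gene were not separated. The log2 fold change was -0.73 in shAjuba1 (adjusted p = 2.19e-05) and 2.56 in Ajuba OE (adjusted p = 7.69e-05), while in shAjuba2 it was -0.46 (adjusted p = 0.0773) and missed the threshold. Of the 10 markers of colon epithelium, KRT8, KRT18, KRT19 and EPCAM were at 48.3 RPM or more in every sample. The markers KRT20, CDX1, CDH17 and LGALS4 were low, with at most 1.34 RPM in any sample. CDX2 (7.40 to 26.8 RPM) and VIL1 (8.88 to 59.1 RPM), the remaining markers, were expressed. Both differed among the 6 lines in edgeR's test of any difference, as did EPCAM, KRT8, KRT18 and KRT19 (adjusted p of 0.0182 or less). CDH17 also passed that test despite its low level (adjusted p = 1.14e-06). Its mean was 0.158 RPM in Ajuba OE, 0.393 in Control and 0.959 RPM in Parental. The log2 fold change of CDH17 in Ajuba OE was -1.23 against Control (adjusted p = 0.0999). With Parental as the control it was -2.53 (adjusted p = 0.00600). In shAjuba1 against shScrambled EPCAM had a log2 fold change of -0.73 (adjusted p = 2.36e-05). KRT18 had 0.44 (adjusted p = 0.00169), KRT8 0.29 (adjusted p = 0.0213) and KRT19 0.07 (adjusted p = 0.668). With Parental as the control KRT18 (-0.27, adjusted p = 0.0226) and KRT8 (-0.39, adjusted p = 0.00261) turned direction. VIL1, the villin gene of the brush border, had a log2 fold change of -1.41 in shAjuba1 and -2.38 in shAjuba2 against shScrambled and of 1.03 in Ajuba OE against Control (adjusted p = 1.67e-06, 0.000603 and 0.00109). CDX2, an intestinal transcription factor gene, had 0.64 in Ajuba OE (adjusted p = 0.0165). Neither call in Ajuba OE held with Parental as the control, where VIL1 was at 0.43 (adjusted p = 0.0593) and CDX2 at 0.48 (adjusted p = 0.0631). The part of these markers in the results was not tested. The summed markers of fibroblasts (5 genes), endothelium (4 genes) and leukocytes (4 genes) reached at most 37.6, 5.41 and 2.45 RPM in any sample. The fibroblast sum, made up mostly of COL1A1 and PDGFRB, ran from 6.21 to 10.4 RPM in Ajuba OE and from 15.5 to 24.6 RPM in Control, and from 25.0 to 37.6 RPM in shAjuba2 against 22.1 to 22.5 RPM in shScrambled. The endothelial sum, mostly VWF, ran from 5.05 to 5.41 RPM in shScrambled and was at most 3.06 RPM elsewhere. The defining markers DCN, CDH5 and PTPRC were at or near 0, with at most 0.0209, 0.0291 and 0.0645 RPM. Replicate 2 of shAjuba2, of Control and of Ajuba OE stood apart from the other samples of its line for several of the 10 genes. Values without it are given beside the results it moves most.

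Per kilobase of the canonical transcript, CTNNB1 was the most abundant of the 10 transcripts, with a mean over the 16 samples of 306 RPM per kb. CTNNA1 followed at 169, and CTNNAL1, which encodes the α-catenin relative α-catulin, at 68.6 RPM per kb. CTNND1 (33.8), VCL (29.3), JUP (25.6), NECTIN1 (20.3), NECTIN2 (19.9) and AFDN (13.03 RPM per kb) formed a middle group. NECTIN3 was far below at 0.502 RPM per kb, with 1.38 to 3.99 RPM per sample. The order depends on the length used: per kilobase of all merged exons JUP moved to rank 4 and CTNND1 to rank 7, while CTNNB1, CTNNA1 and CTNNAL1 stayed at the top in that order and AFDN and NECTIN3 at the bottom. In shAjuba1 the middle group was reordered, since NECTIN1 stood at 34.4 and JUP at 13.5 RPM per kb.

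**Figure D1:**
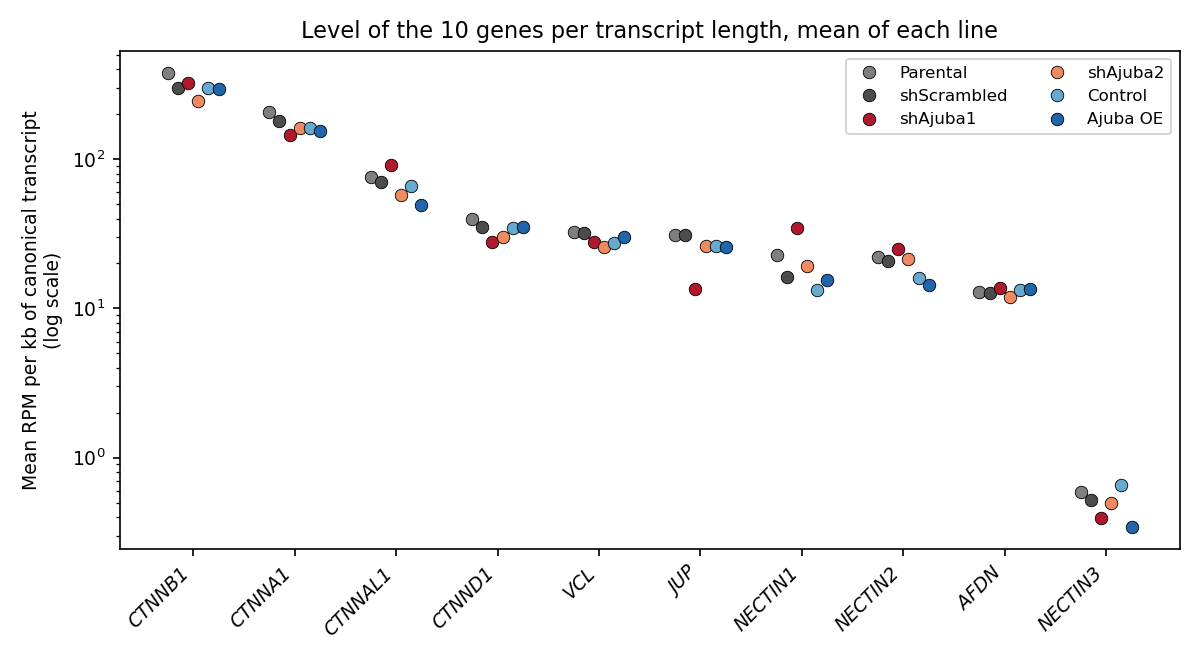
Mean level of the 10 genes in each of the 6 lines, as RPM per kilobase of the canonical transcript on a log axis. Genes are ordered by the mean of their 6 line means, with 1 point per line. CTNNB1 and CTNNA1 are highest, NECTIN3 is lowest at 0.502 on average, and shAjuba1 departs from the other lines for JUP (below) and NECTIN1 (above).

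The 10 genes differed widely in how much they varied between lines. The mean RPM of the highest line was 2.60 times that of the lowest for NECTIN1, 2.31 times for JUP, 1.91 for NECTIN3, 1.87 for CTNNAL1 and 1.75 for NECTIN2. The ratio was 1.54 for CTNNB1, 1.43 for CTNNA1, 1.41 for CTNND1, 1.25 for VCL and 1.15 for AFDN. Of all genes tested, 20.8% had a larger ratio than NECTIN1 and 98.2% a larger ratio than AFDN. In edgeR's test of any difference among the 6 lines, 8 of the 10 genes passed the threshold (adjusted p under 0.05), where 45.7% of all 23597 genes tested did. CTNNAL1 (adjusted p = 0.0676) and AFDN (adjusted p = 0.124) did not pass. NECTIN1 had the highest F of the 10 genes (63.0, adjusted p = 1.18e-07), and JUP (21.8, adjusted p = 3.32e-05) came next. Without replicate 1 of Parental 5 of the 10 genes passed.

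**Figure D2:**
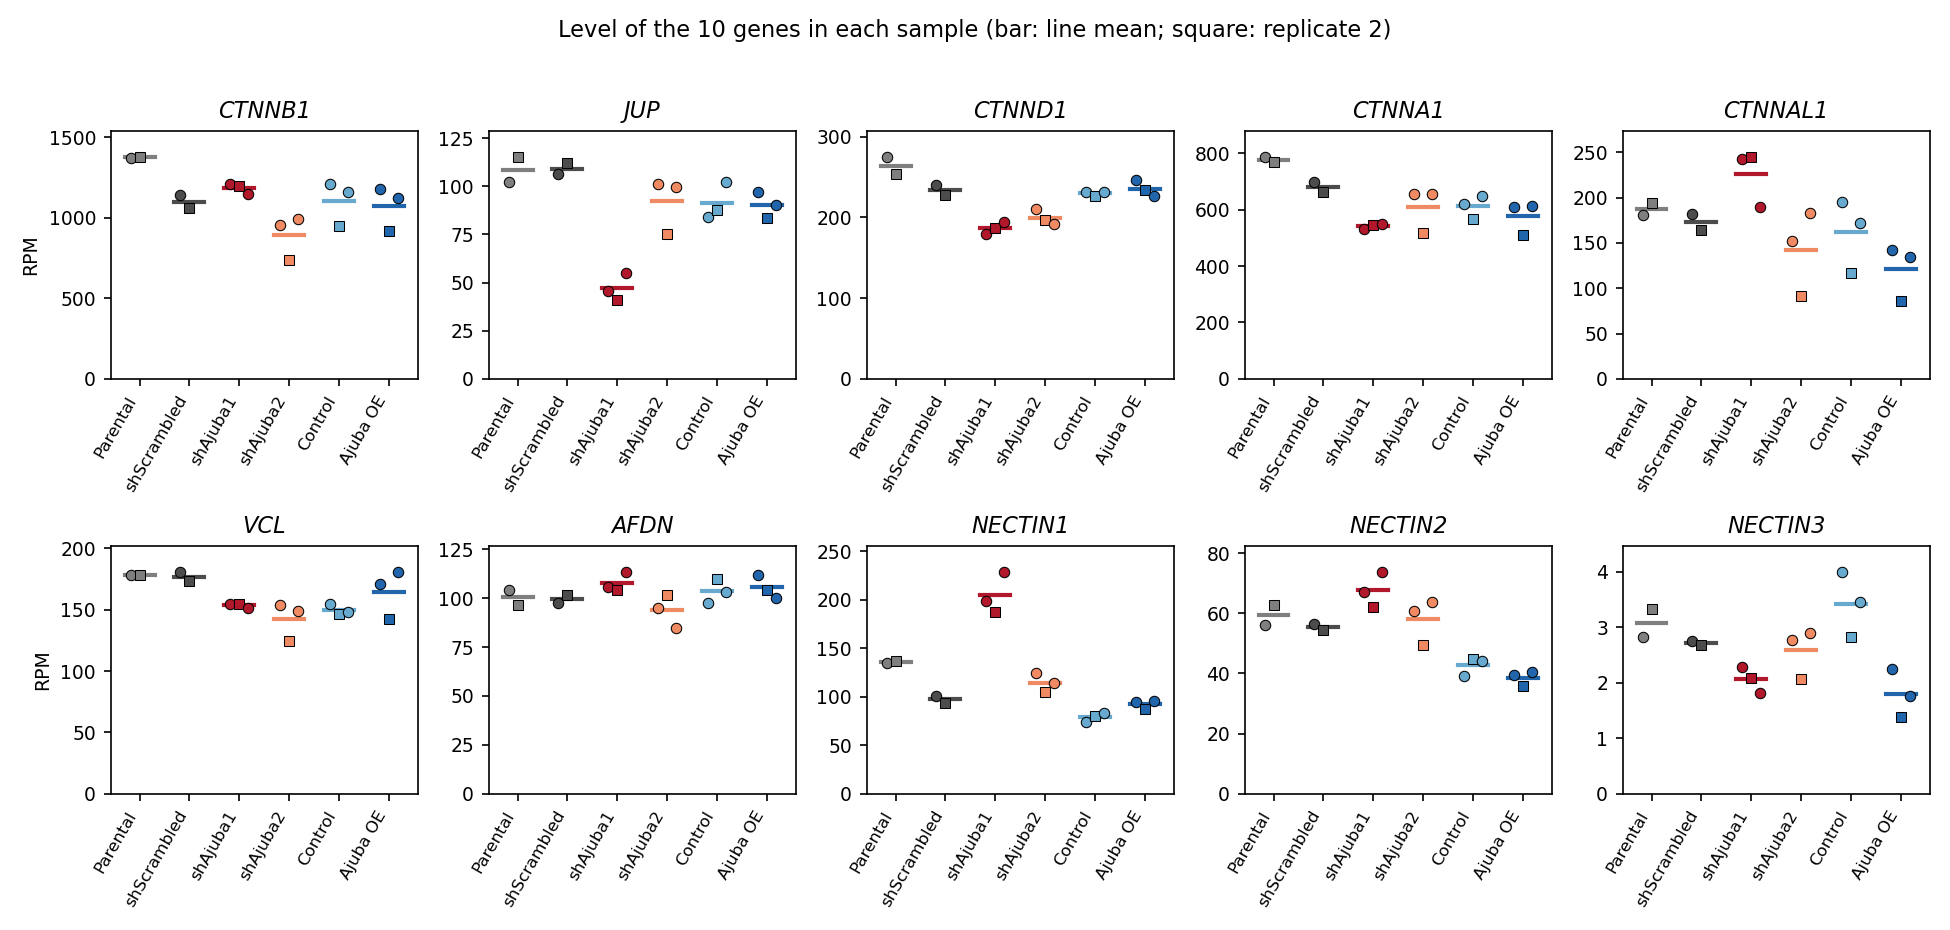
RPM of each of the 10 genes in every sample (y axis from 0, a panel per gene), by line. Points are samples, squares mark replicate 2 and horizontal bars are line means. The 3 shAjuba1 samples lie below all others for JUP (41.0 to 55.0 RPM) and above all others for NECTIN1 (187 to 228 RPM), and AFDN is nearly flat.

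Loss of Ajuba in shAjuba1 was compared with shScrambled. Here 7 of the 10 genes passed the threshold, 3 higher and 4 lower, where 38.4% of all 21082 genes tested did (18.2% higher and 20.2% lower). Plakoglobin fell most, nectin-1 rose about as much, and the other 5 changes were smaller. In RPM the shAjuba1 and shScrambled samples did not overlap for any of the 10 genes, and this held for 60.1% of all genes tested. The median log2 fold change was -0.06 over the 10 genes and -0.01 over all genes. These are levels in bulk RNA, in which fewer cells that express a gene cannot be told apart from less RNA per cell.

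JUP, the plakoglobin gene, was at 106 and 112 RPM in shScrambled and at 45.8, 41.0 and 55.0 RPM in shAjuba1. Every shAjuba1 sample was below the lowest value of any other line, which was 75.3 RPM in replicate 2 of shAjuba2. The log2 fold change against shScrambled was -1.22 (SE 0.105, adjusted p = 2.11e-06). JUP passed under all 12 alternatives tried, with log2 fold changes from -1.34 to -1.13.

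CTNND1, which encodes p120-catenin, was at 239.6 and 228 RPM in shScrambled and at 179, 187 and 194 RPM in shAjuba1. Its log2 fold change was -0.34 (SE 0.0778, adjusted p = 0.00424). CTNNA1, which encodes α-catenin, was at 698 and 663 RPM in shScrambled and at 532, 547 and 549 RPM in shAjuba1, a log2 fold change of -0.34 (SE 0.0823, adjusted p = 0.00561). These 2 genes were thus moderately lower in each shAjuba1 sample. Without replicate 1 of shScrambled the log2 fold changes were -0.28 in both (adjusted p = 0.0768 for CTNND1 and 0.0790 for CTNNA1). That fit holds 1 control sample, which is assumed to vary like the shAjuba1 samples.

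CTNNB1, the β-catenin gene, was at 1139 and 1059.8 RPM in shScrambled and at 1212, 1196 and 1149 RPM in shAjuba1. The samples did not overlap, but the log2 fold change of 0.09 (SE 0.0884, adjusted p = 0.436) did not pass. Its sign depended on the control: with Parental (1373 and 1375 RPM) in place of shScrambled the log2 fold change was -0.24 (adjusted p = 0.0323). No direction of CTNNB1 in shAjuba1 can therefore be given apart from the control used.

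CTNNAL1 was at 182 and 164 RPM in shScrambled and at 242, 244 and 190.0 RPM in shAjuba1, a log2 fold change of 0.37 (SE 0.114, adjusted p = 0.0218). The rise was carried by replicates 1 and 2 of shAjuba1, and replicate 3 was just above the higher shScrambled sample. With 1 sample left out at a time CTNNAL1 passed only without replicate 3 of shAjuba1, and with Parental as the control the log2 fold change was 0.24 (adjusted p = 0.108). VCL, which strengthens the link of α-catenin to actin, was at 181 and 173 RPM in shScrambled and at 155, 155 and 151 RPM in shAjuba1. Its log2 fold change was -0.22 (SE 0.0752, adjusted p = 0.0357), and it passed in 6 of 12 alternatives.

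AFDN, the actin adaptor of the nectins, was at 97.6 and 102 RPM in shScrambled and at 106, 104 and 113 RPM in shAjuba1. The log2 fold change of 0.10 (SE 0.0784, adjusted p = 0.364) did not pass, and AFDN did not pass under any of the 12 alternatives.

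NECTIN1 was at 100.4 and 94.1 RPM in shScrambled and at 199, 187 and 228 RPM in shAjuba1. The 3 shAjuba1 samples were the highest of all 16, above both Parental samples (135 and 137 RPM). The log2 fold change was 1.06 against shScrambled (SE 0.0928, adjusted p = 2.44e-06) and 0.56 with Parental as the control (adjusted p = 0.000463). NECTIN1 passed under all 12 alternatives.

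NECTIN2 was at 56.6 and 54.4 RPM in shScrambled and at 67.2, 62.2 and 73.6 RPM in shAjuba1, a log2 fold change of 0.27 (SE 0.0901, adjusted p = 0.0309). With Parental (56.2 and 62.7 RPM) as the control the samples overlapped and the log2 fold change was 0.16 (adjusted p = 0.205). NECTIN3, for which 63 to 135 reads were counted per sample in these lines, was at 2.74 and 2.68 RPM in shScrambled and at 2.28, 2.09 and 1.82 RPM in shAjuba1. Its log2 fold change of -0.40 (SE 0.165, adjusted p = 0.0725) did not pass, but with Parental as the control it was -0.60 (adjusted p = 0.0149). The 3 nectin genes thus did not share a direction in shAjuba1: 2 passed as higher and NECTIN3 was not higher in any sample.

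The count of 7 changed with the samples used. It was 2 (JUP and NECTIN1) without replicate 1 of shScrambled, 4 without replicate 2 of shScrambled, 4 without replicate 1 of shAjuba1, and 4 when all 16 samples were fitted together. Without a shScrambled sample the spread comes from shAjuba1 alone. The count was 7 with DESeq2.

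**Figure D3:**
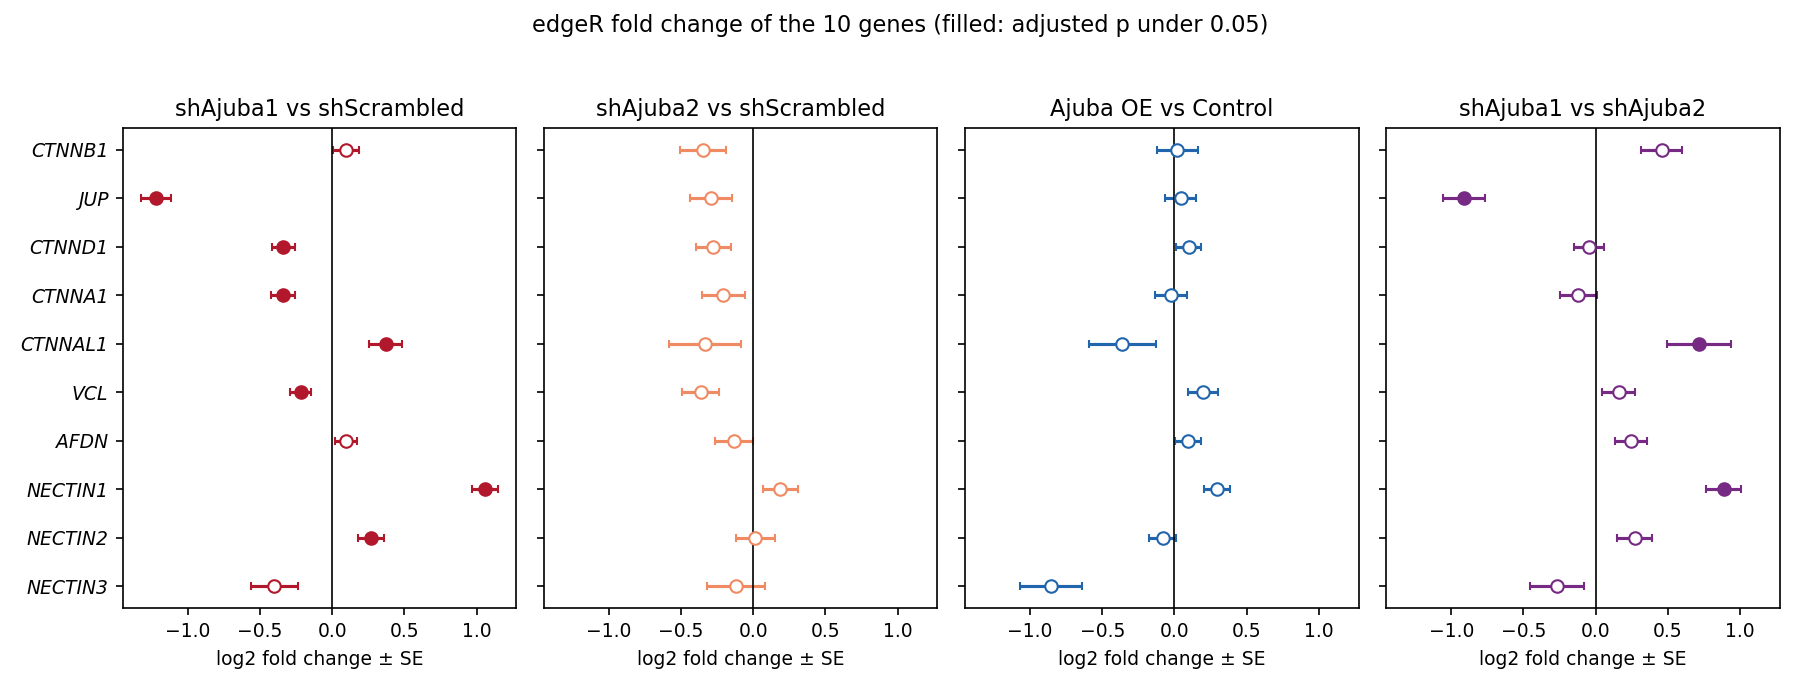
log2 fold change of each of the 10 genes with its SE (x axis) in 4 comparisons, from edgeR, with filled points where the adjusted p was under 0.05. In shAjuba1 against shScrambled 7 points are filled, in shAjuba2 against shScrambled and in Ajuba OE against Control none, and in shAjuba1 against shAjuba2 the 3 filled points are JUP, CTNNAL1 and NECTIN1.

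In the other knockdown line, shAjuba2, none of the 10 genes passed against shScrambled by edgeR, where 7.63% of the 22446 genes tested did (3.19% higher and 4.44% lower). DESeq2 also called 0 of them, and 1 gene, VCL, had an unadjusted p under 0.05. The samples of shAjuba2 and shScrambled did not overlap for 6 of the 10 genes, as for 47.6% of all genes tested. The largest differences were in VCL, CTNNB1 and CTNNAL1, and the SD of the shAjuba2 samples was above that of the shAjuba1 samples in 9 of the 10 genes, with NECTIN1 the exception.

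VCL was at 153, 124 and 149 RPM in shAjuba2, below both shScrambled samples, with a log2 fold change of -0.36 (SE 0.129, adjusted p = 0.128). CTNNB1 was at 955, 736 and 991 RPM, also below both, with a log2 fold change of -0.35 (SE 0.162, adjusted p = 0.221). CTNNAL1 was at 152, 91.7 and 183 RPM and spread across the shScrambled values, with a log2 fold change of -0.34 (SE 0.250, adjusted p = 0.438). Replicate 2 was the lowest of the 3 samples in each of these genes. Without it the log2 fold change was -0.24 in CTNNB1 (adjusted p = 0.129) and -0.11 in CTNNAL1 (adjusted p = 0.528).

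JUP was at 101, 75.3 and 99.7 RPM in shAjuba2, a log2 fold change of -0.29 (SE 0.147, adjusted p = 0.252). CTNND1 was at 211, 196 and 192 RPM (log2 fold change -0.28, adjusted p = 0.194) and CTNNA1 at 657, 518 and 655 RPM (log2 fold change -0.21, adjusted p = 0.416). In each of these 3 genes shScrambled stood higher than any shAjuba2 sample. Without replicate 2 of shAjuba2 the log2 fold change was -0.18 in JUP (adjusted p = 0.189) and -0.11 in CTNNA1 (adjusted p = 0.467). AFDN was at 94.8, 101 and 85.0 RPM and overlapped shScrambled (log2 fold change -0.14, adjusted p = 0.553).

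NECTIN1 was at 125, 105 and 114 RPM in shAjuba2, above both shScrambled samples but below both Parental samples. Its log2 fold change was 0.19 (SE 0.122, adjusted p = 0.371) against shScrambled and -0.31 (adjusted p = 0.127) with Parental as the control. NECTIN2 (60.9, 49.3 and 63.8 RPM) and NECTIN3 (2.77, 2.07 and 2.90 RPM) overlapped shScrambled, with log2 fold changes of 0.01 and -0.12. Without replicate 2 of shAjuba2 only VCL passed (log2 fold change -0.29, adjusted p = 0.0389). With all 16 samples fitted together VCL (adjusted p = 0.0290) and CTNND1 (adjusted p = 0.0422) passed.

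The knockdown lines were compared with each other directly, which tests the difference between their changes without the shared shScrambled samples. In shAjuba1 against shAjuba2 3 of the 10 genes passed, where 19.6% of the 21600 genes tested did. The samples did not overlap for 5 of the 10, as for 39.7% of all genes tested. JUP was lower in shAjuba1 by a log2 fold change of -0.91 (SE 0.146, adjusted p = 0.00245). NECTIN1 was higher by 0.89 (SE 0.118, adjusted p = 0.000937), and both genes passed under all 12 alternatives. CTNNAL1 was higher by 0.72 (SE 0.222, adjusted p = 0.0477) but passed in only 5 of 12 alternatives, and its shAjuba2 samples ranged from 91.7 to 183 RPM. CTNNB1 lay just outside the threshold, with a log2 fold change of 0.46 (SE 0.144, adjusted p = 0.0508) and no overlap between the samples of the lines. It passed without replicate 2 of shAjuba2, where the log2 fold change was 0.34 (adjusted p = 0.0256), and 5 of the 10 genes passed there. AJUBA itself differed by a log2 fold change of -0.26 (SE 0.116, adjusted p = 0.141) between these lines, with every shAjuba1 sample below every shAjuba2 sample.

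Gain of Ajuba in Ajuba OE was compared with Control. None of the 10 genes passed by edgeR, where 5.43% of the 21140 genes tested did (2.39% higher and 3.03% lower). Of the 10 genes 2, NECTIN1 and NECTIN3, had an unadjusted p under 0.05, and DESeq2 called both. The samples of the lines did not overlap for these 2 genes and did for the other 8, where 25.4% of all genes tested showed no overlap. The median log2 fold change over the 10 genes was 0.03.

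NECTIN3 was at 3.99, 2.82 and 3.46 RPM in Control and at 2.25, 1.38 and 1.76 RPM in Ajuba OE, from 66 to 157 counts per sample. All 3 Ajuba OE samples were below all 3 Control samples, and replicate 2 was the lowest in both lines. The log2 fold change was -0.86 (SE 0.215, adjusted p = 0.0691). It was -0.84 by DESeq2 (adjusted p = 0.0163) and -0.83 without replicate 2 of both lines (adjusted p = 0.0324), and NECTIN3 passed in 5 of 14 alternatives.

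NECTIN1 was at 73.9, 79.9 and 82.99 RPM in Control and at 95.2, 87.2 and 95.9 RPM in Ajuba OE, so the samples of the lines were fully separated. This gave a log2 fold change of 0.30 (SE 0.0899, adjusted p = 0.120), and DESeq2 gave 0.32 (adjusted p = 0.0481). With Parental (135 and 137 RPM) as the control it was -0.50 (adjusted p = 0.0231). Ajuba OE thus lay between Control and Parental, and the sign of the difference depends on the control. NECTIN2 was at 39.3, 44.8 and 44.01 RPM in Control and at 39.5, 35.9 and 40.4 RPM in Ajuba OE (log2 fold change -0.08, adjusted p = 0.721), and with Parental as the control the log2 fold change was -0.57 (adjusted p = 0.0222).

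The catenins were close to Control in Ajuba OE. CTNNB1 was at 1208, 946 and 1161 RPM in Control and at 1179, 920.2 and 1122 RPM in Ajuba OE, a log2 fold change of 0.02 (SE 0.142, adjusted p = 0.962). JUP was at 84.0, 87.8 and 102 RPM in Control and at 97.0, 83.4 and 90.3 RPM in Ajuba OE (log2 fold change 0.04, SE 0.106, adjusted p = 0.877). In both genes the ranges of the lines overlapped almost fully. CTNNA1 (log2 fold change -0.02), CTNND1 (0.10) and AFDN (0.09) also overlapped, with adjusted p-values of 0.942, 0.618 and 0.660. VCL was at 155, 147 and 148 RPM in Control and at 171, 142 and 181 RPM in Ajuba OE (log2 fold change 0.20, adjusted p = 0.388).

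CTNNAL1 was at 196, 117 and 172 RPM in Control and at 142, 86.4 and 134 RPM in Ajuba OE. Replicate 2 was the lowest sample of each line, and the spread within a line exceeded the difference between them. The log2 fold change was -0.36 (SE 0.232, adjusted p = 0.474). It was -0.55 without replicate 2 of Control (adjusted p = 0.224), -0.18 without replicate 2 of Ajuba OE (adjusted p = 0.630) and -0.37 without both (adjusted p = 0.0594). With the replicate number as a block it was -0.36 (adjusted p = 0.00129), the only 1 of 14 alternatives in which CTNNAL1 passed. In shAjuba2, Control and Ajuba OE replicate 2 was the lowest of its line for CTNNB1, CTNNA1, CTNNAL1, VCL and NECTIN3, and in shAjuba1 it was the lowest for none of these 5 genes.

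The control lines themselves differed from Parental cells. In shScrambled against Parental 2 of the 10 genes passed, both lower, where 30.7% of the 21289 genes tested did (15.0% higher and 15.6% lower). The samples of these lines did not overlap for 5 of the 10 genes, as for 65.2% of all genes tested. NECTIN1 had a log2 fold change of -0.49 (SE 0.0753, adjusted p = 2.55e-05) and CTNNB1 of -0.33 (SE 0.0819, adjusted p = 0.00385). JUP had a log2 fold change of 0.00 (SE 0.0796, adjusted p = 0.992), with 102 and 115 RPM in Parental. In Control against Parental 1 gene passed, where 0.370% of the 21644 genes tested did. This was NECTIN1, with a log2 fold change of -0.78 (SE 0.1004, adjusted p = 0.0378) and no overlap between 73.9 to 82.99 RPM in Control and the Parental values. It did not pass without either Parental sample, without replicate 1 of Control (log2 fold change -0.74, adjusted p = 0.0584) or without replicate 3 of Control (-0.83, adjusted p = 0.1799), where 14 to 42 genes passed in all, and without replicate 2 of Control 985 genes passed, among them 2 of the 10. NECTIN2 had a log2 fold change of -0.46 (SE 0.112, adjusted p = 0.127) in this comparison, and DESeq2 called it (adjusted p = 0.0367).

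Ordered by mean RPM, NECTIN1 ran from shAjuba1 (205 ± 21.2, SD, n = 3) to Parental (136 ± 1.52, n = 2), shAjuba2 (115 ± 10.0, n = 3), shScrambled (97.3 ± 4.47, n = 2), Ajuba OE (92.8 ± 4.83, n = 3) and Control (78.9 ± 4.59, n = 3). Neighbours in this order overlapped only for shScrambled and Ajuba OE. For JUP the order was shScrambled (109 ± 4.03), Parental (109 ± 9.23), shAjuba2 (92.1 ± 14.6), Control (91.4 ± 9.69), Ajuba OE (90.3 ± 6.80) and shAjuba1 (47.3 ± 7.12 RPM). Here shAjuba2, Control and Ajuba OE overlapped, as did shScrambled and Parental, and shAjuba1 stood alone. For CTNNB1 only Parental (1374 ± 1.61 RPM), the highest, was set off from its neighbour, and shAjuba2 (894 ± 138 RPM) was the lowest line. For CTNNA1 Parental (777 ± 12.04) and shScrambled (681 ± 24.6 RPM) stood above the other 4 lines, and each pair of neighbours below them overlapped. For CTNND1 the knockdown lines, shAjuba2 (199.7 ± 10.1) and shAjuba1 (187 ± 7.51 RPM), overlapped each other and lay below all samples of the other 4 lines. For NECTIN2 Control (42.7 ± 2.99) and Ajuba OE (38.6 ± 2.41 RPM) overlapped each other and lay below all samples of the other 4 lines. For CTNNAL1, VCL and AFDN every pair of neighbouring lines overlapped. For NECTIN3 Control (3.42 ± 0.588 RPM) was highest and Ajuba OE (1.80 ± 0.440 RPM) lowest, and only Parental and shScrambled were neighbours without overlap.

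Plakoglobin and β-catenin bind the same region of the cadherin tail, so JUP was also read relative to CTNNB1 within each sample, which removes the scaling by library. Per kilobase JUP was at 9.74% and 11.0% of CTNNB1 in shScrambled and at 3.95%, 3.58% and 5.00% in shAjuba1. It was at 11.1%, 10.7% and 10.5% in shAjuba2, at 7.26%, 9.70% and 9.21% in Control, at 8.59%, 9.47% and 8.41% in Ajuba OE and at 7.76% and 8.74% in Parental. The 3 shAjuba1 samples were the lowest of the 16 and did not overlap any other line, and replicate 2 of shAjuba2, which was low for both genes, was not low for their ratio. NECTIN1 relative to NECTIN2, per kilobase, had a mean of 79.2% ± 1.50 among shScrambled samples (SD, n = 2) and of 137% ± 3.17 among shAjuba1 samples (SD, n = 3). It was 83.5% ± 2.68 in Control and 109% ± 1.33 in Ajuba OE (SD, n = 3 each), and the samples of these lines did not overlap. Parental samples (98.9% to 109%) overlapped those of Ajuba OE, and shAjuba2 had a mean of 89.8%. CTNNAL1 relative to CTNNA1 was 63.6% ± 9.29 in shAjuba1 (SD, n = 3), against means from 31.7% to 40.2% in the other 5 lines. These ratios were described and not tested.

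**Figure D4:**
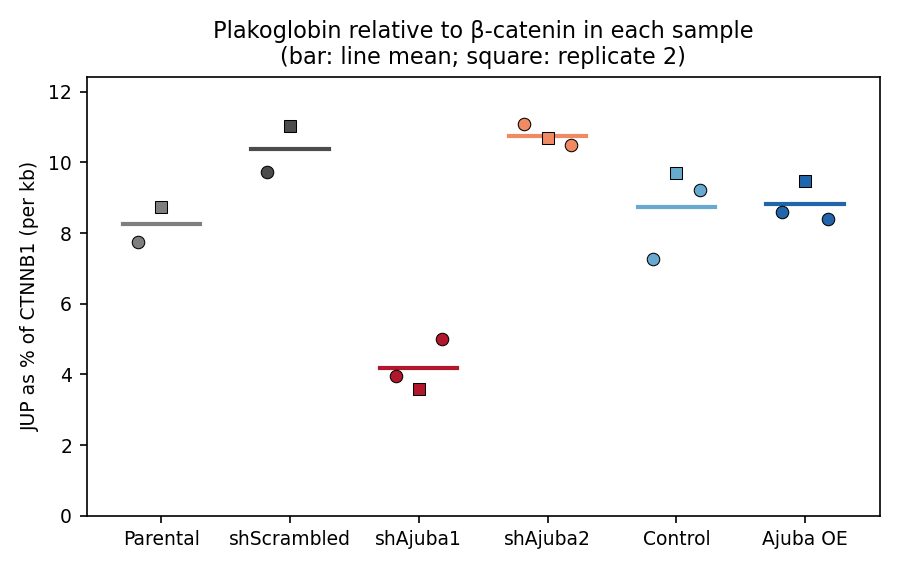
JUP as a percent of CTNNB1, both per kilobase of the canonical transcript, in each sample of the 6 lines (y axis from 0). Points are samples, squares mark replicate 2 and horizontal bars are line means. The shAjuba1 samples lie at 3.58% to 5.00% and all other samples at 7.26% or more.

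For the 3 genes with the largest ratio between lines, the genes with the most similar pattern were sought among 19226 others by Pearson's r of log2 CPM over the 16 samples. For NECTIN1 these were NACC1 (r = 0.957), FZD10-AS1 (r = 0.947) and VIPAS39 (r = 0.945). For JUP they were SHMT1 (r = 0.972), FUCA1 (r = 0.970) and BCAS3 (r = 0.961), and for NECTIN3 they were PALS1 (r = 0.906), CEP57 (r = 0.901) and ANKRD13C (r = 0.895). None of these is on the partner lists below, and whether any has a role at junctions was not examined. Samples of a line share their modification and each library its depth, so these values describe likeness in 6 lines and carry no test.

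The wider junction was described with 9 lists that hold 86 partners of the 10 genes. In shAjuba1 against shScrambled 44 of the 77 partners tested passed, 19 higher and 25 lower (57.1%, against 38.4% of all genes). In shAjuba2 13 of 78 passed, 5 higher and 8 lower (16.7%, against 7.63% of all genes), and in Ajuba OE 11 of 75 passed, 6 higher and 5 lower (14.7%, against 5.43%). For reading the counts of each list, 18.2% of all genes were called higher and 20.2% lower in shAjuba1. The shares were 3.19% higher and 4.44% lower for shAjuba2, and 2.39% higher and 3.03% lower for Ajuba OE. Named genes were also fitted with Parental as the control, an alternative chosen after the data were seen, and the values are given where that fit ended the call or turned the direction.

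Of the cadherins, to which the catenins bind, CDH11 changed most. This mesenchymal cadherin had a log2 fold change of 2.32 in shAjuba1 (SE 0.103, adjusted p = 1.10e-08), 1.80 in shAjuba2 (SE 0.143, adjusted p = 0.00105) and -3.16 in Ajuba OE (SE 0.107, adjusted p = 4.26e-05). Mean levels were highest in the knockdown lines (152 RPM for shAjuba1 and 109 RPM for shAjuba2) and lowest in Ajuba OE (3.89 RPM). Parental stood at 67.7 RPM, Control at 36.3 RPM and shScrambled at 30.1 RPM. CDH1, the gene of E-cadherin, rose in shAjuba1 (log2 fold change 0.73, adjusted p = 0.000253) and in Ajuba OE (0.77, adjusted p = 0.0132), and was at -0.68 in shAjuba2 (adjusted p = 0.121). Its direction in shAjuba1 turned with Parental as the control (-0.79, adjusted p = 0.000218), with CDH1 at a mean of 23.0 RPM in Parental, 8.05 in shScrambled and 13.6 RPM in shAjuba1. In Ajuba OE it was at 0.56 against Parental (adjusted p = 0.0804). CDH3 fell in shAjuba1 (-0.33, adjusted p = 0.0473) and shAjuba2 (-0.91, adjusted p = 0.0398) and rose in Ajuba OE (1.07, adjusted p = 0.000714). Over the list, 3 cadherins were higher and 1 lower of 5 tested in shAjuba1, 1 higher and 1 lower in shAjuba2, and 2 higher and 1 lower in Ajuba OE.

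Of the desmosomal partners of plakoglobin, 5 of 7 tested were lower in shAjuba1 and none was higher (20.2% and 18.2% of all genes), with a list median of -0.39 against -0.01 for all genes. DSG2, the desmosomal cadherin desmoglein-2, had a log2 fold change of -1.13 (SE 0.0951, adjusted p = 1.72e-06). DSC2, the gene of desmocollin-2, had -1.39 (SE 0.160, adjusted p = 2.57e-05) at a low level, with a mean of 3.54 RPM in shScrambled and 1.38 RPM in shAjuba1. PERP, a tetraspan protein of desmosomes, had -0.39 (adjusted p = 0.00379). In shAjuba2 DSC2 also fell (-1.48, adjusted p = 0.00573) while DSG2 was at -0.54 (adjusted p = 0.0557), and the list held 2 lower and 1 higher of 7. In Ajuba OE DSC2 rose (1.00, adjusted p = 0.0479), the only 1 of 6 tested that passed, and was at 0.70 against Parental (adjusted p = 0.123). JUP and DSG2 were thus both lower in shAjuba1 than in shScrambled, each by more than 1 on the log2 scale.

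Of the plakophilins and other catenin relatives, 4 of 6 tested were higher in shAjuba1 and none was lower. PKP1, a desmosomal armadillo protein, had a log2 fold change of 1.05 (SE 0.146, adjusted p = 0.000115), and PKP2 (0.39, adjusted p = 0.00450) and ARVCF (0.48, adjusted p = 0.0125), a relative of p120-catenin, also rose. Against Parental PKP2 was at -0.22 (adjusted p = 0.0635), with means of 147 RPM in Parental, 97.0 in shScrambled and 129 RPM in shAjuba1. Of the nectin relatives, CADM4 fell in shAjuba1 (-1.11, adjusted p = 1.20e-06) and in Ajuba OE (-0.45, adjusted p = 0.0318), and CADM1 fell in shAjuba1 (-0.68, adjusted p = 0.000495). NECTIN4 rose in shAjuba1 (0.61, adjusted p = 0.0276) and fell in shAjuba2 (-1.28, adjusted p = 0.0397), and the direct test between these lines gave 1.91 (adjusted p = 0.000653). NECTIN4 was at 0.33 in shAjuba1 against Parental (adjusted p = 0.181), and its line means were at most 1.53 RPM.

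Of the 18 genes that link the junction to actin, 4 were higher and 6 lower in shAjuba1. The formin gene FMN1 (-1.55, adjusted p = 5.54e-08), LMO7 (-1.44, adjusted p = 8.15e-08), whose product binds afadin, and LIMA1 (-1.56, adjusted p = 1.06e-07), whose product EPLIN binds α-catenin and actin, fell most clearly. LIMA1 also fell in shAjuba2 (-1.01, adjusted p = 0.0154), where 3 of the 18 were lower and none was higher. FMN1 and LMO7 were at -0.40 there, with adjusted p-values of 0.0795 and 0.0764. LMO7 fell in Ajuba OE too (-0.39, adjusted p = 0.0361).

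Of the p120 partners and the RAP1 pathway to afadin, 3 were higher and 5 lower of 13 in shAjuba1. They included RAP1B (-0.70, adjusted p = 7.99e-05), a small GTPase that acts on junctions, its exchange factor RAPGEF2 (-0.43, adjusted p = 0.00180) and the polarity gene PARD3 (0.42, adjusted p = 0.00557, and 0.23 against Parental, adjusted p = 0.0681). Of the 8 genes of the β-catenin destruction complex, AXIN1 was higher (0.50, adjusted p = 0.000664), and the kinase gene GSK3B (-0.43, adjusted p = 0.000966) and the ubiquitin ligase gene BTRC (-0.38, adjusted p = 0.00564) were lower in shAjuba1. These 3 of 8 are near the share of all genes called there (38.4%). Of the 9 nuclear partners of β-catenin, TCF7 rose in shAjuba1 (0.93, adjusted p = 7.64e-06) and in Ajuba OE (0.86, adjusted p = 0.00213). LEF1 rose in shAjuba2 (0.54, adjusted p = 0.0358), and PYGO1, a coactivator gene, fell in Ajuba OE (-2.71, SE 0.210, adjusted p = 0.000605), from a mean of 1.53 to 0.22 RPM. Against Parental TCF7 was at 0.24 in shAjuba1 (adjusted p = 0.0517) and LEF1 at 0.15 in shAjuba2 (adjusted p = 0.357).

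Of the junction kinases and phosphatases, the receptor phosphatase genes PTPRK (-1.70, SE 0.103, adjusted p = 1.11e-07) and PTPRJ (-1.31, SE 0.0746, adjusted p = 6.43e-08) fell in shAjuba1, where 4 of 7 were lower and 1 was higher. The one that rose was SRC, whose kinase phosphorylates catenins (1.19, SE 0.109, adjusted p = 3.56e-06). In shAjuba2 SRC rose (0.79, adjusted p = 0.00877) and PTPRK fell (-0.52, adjusted p = 0.0469), and PTPRJ was at -0.55 (adjusted p = 0.0529). Neither call in shAjuba2 held against Parental, where SRC was at 0.08 (adjusted p = 0.629) and PTPRK at -0.01 (adjusted p = 0.975).

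**Figure D5:**
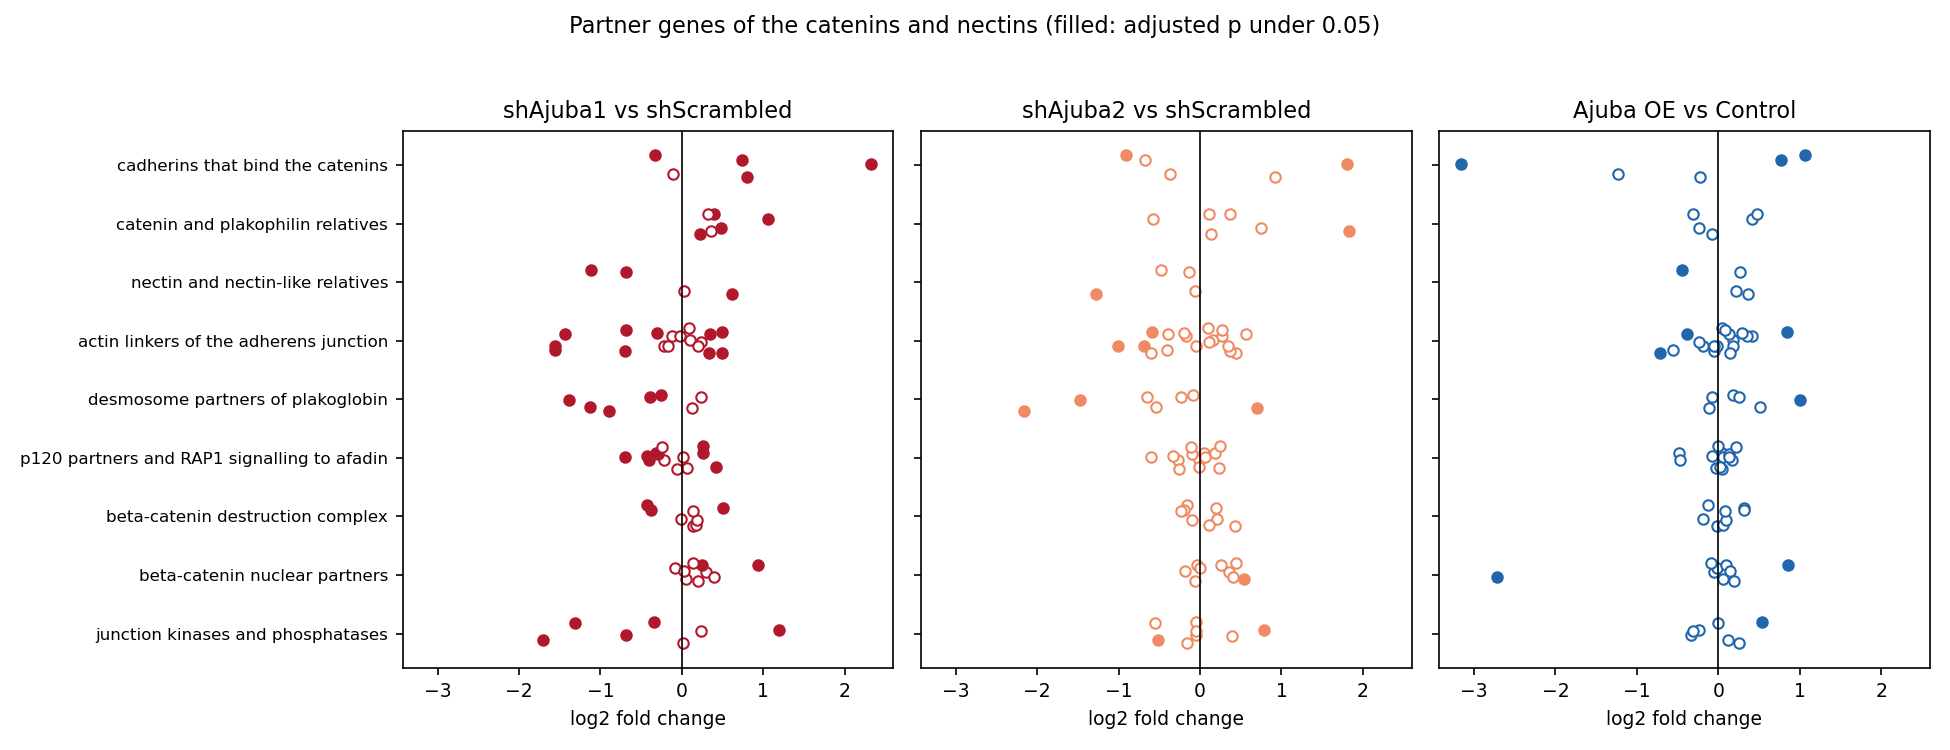
log2 fold change (x axis) of the tested genes of the 9 partner lists (rows) in shAjuba1 and shAjuba2 against shScrambled and in Ajuba OE against Control, from edgeR, 1 point per gene and filled where the adjusted p was under 0.05. In shAjuba1 44 of 77 points are filled, against 13 of 78 in shAjuba2 and 11 of 75 in Ajuba OE, and the point farthest from 0 is CDH11 in Ajuba OE at -3.16.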

How the data were processed

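RNA from 16 samples of 6 SW480 lines was sequenced as stranded mRNA libraries with paired reads of 50 bp. HISAT2 was the aligner, hg38 the genome and featureCounts the counter of read pairs on exons, and the authors deposited whole-number counts per gene without normalization or pooling. Tool versions are not given in the sources used here. Gene symbols and positions came from GENCODE release 44, in which 56434 of the 66023 genes holding 99.8% of all counts were found.

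From these counts RPM was computed on the total of each sample. Each comparison was fitted on its own lines with edgeR 4.0.16 (R 4.3.3): filterByExpr, TMM (factors from 0.953 to 1.03), a quasi-likelihood test and Benjamini-Hochberg adjustment over all genes tested, with a threshold of 0.05 and a prior count of 2. The scripts were tested on simulated data. Alternatives were DESeq2 1.42.0, other scalings and filters, all 16 samples in 1 fit, a replicate block, each sample left out and Parental as control. Leaving out replicate 2 of both lines, and Parental as the control for partner genes and markers, were added after the data were seen.

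The 10 genes and the partner lists were chosen with earlier results of these data known. Named besides the 10 genes were AJUBA, overlapping genes, CDH1 and up to 3 genes of each partner list with the smallest adjusted p among those that passed, and the 3 most similar genes of the 3 genes that varied most between lines.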

Additional observations from a re-analysis of the deposited data

Results flagged for a closer look

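In 3 of the 10 genes the change differed between the knockdown lines by a direct test of shAjuba1 against shAjuba2. JUP was at 41.0 to 55.0 RPM in shAjuba1 and at 75.3 to 101 RPM in shAjuba2, a log2 fold change of -0.91. NECTIN1 was at 187 to 228 RPM against 105 to 125 RPM, a log2 fold change of 0.89. CTNNAL1 was at 190.0 to 244 RPM against 91.7 to 183 RPM, a log2 fold change of 0.72, and without replicate 2 of shAjuba2 it was 0.49. Every sample of one line was on the same side of every sample of the other in these 3 genes, as in 39.7% of all 21600 genes tested. Groups of 2 or 3 samples were too small for a test of outlying samples.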

How the results depend on the processing

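Of 720 log2 fold changes of the 10 genes under an alternative, 630 kept their direction and their side of the threshold. Of the others, 32 lost the threshold, 27 gained it and 31 changed sign. The cause of these changes was not tested. With 2 or 3 samples per line the counts of genes that passed moved with the libraries left out. JUP and NECTIN1 in shAjuba1, against shScrambled and against shAjuba2, passed under every alternative.

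With all 16 samples in 1 fit, 4 of the 10 genes passed in shAjuba1 in place of 7, 2 in shAjuba2 in place of 0, 2 in Ajuba OE in place of 0, 1 in shScrambled against Parental in place of 2, and 2 in Control against Parental in place of 1. Over all genes, 3672 passed there in shAjuba2 (1713 in the fit of the lines compared), 2386 in Ajuba OE (1147), 1696 in shScrambled against Parental (6526) and 530 in Control against Parental (80). With every gene of at least 1 count kept, 3210 genes passed in shAjuba2 and 1947 in Control against Parental, and of the 10 genes 1 passed in Ajuba OE and 2 in Control against Parental. DESeq2 called 1763 genes in Ajuba OE and 567 in Control against Parental, with 2 of the 10 genes in each. Without replicate 2 of both lines 3068 genes passed in shAjuba2, and 1 of the 10 in Ajuba OE. With Parental as the control 2 of the 10 genes passed in Ajuba OE.

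The replicate numbers were not taken as pairs in the main fits. The correlation of deviations of samples with the same number ran from -0.169 to 0.616 and was over 0.1 for every pair in no comparison. The value of 0.616 was that of replicate 2 in Ajuba OE and Control, and a shift shared by replicate 2 across lines was not tested. With the number as a replicate block, 5377 genes passed in shAjuba2 (1 of the 10, CTNNAL1 at -0.59), 5140 in Ajuba OE (3 of the 10: NECTIN1 at 0.30, NECTIN3 at -0.88 and CTNNAL1 at -0.36, adjusted p = 0.00129) and 318 in Control against Parental (0 of the 10). The count was 8863 in shAjuba1 (7 of the 10), 2937 in shAjuba1 against shAjuba2 (2), 5411 in shScrambled against Parental (2) and 12061 across the 6 lines (9). In the comparisons with shScrambled or Parental, replicate 3 had no partner.

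With 1 sample left out at a time, 4711 to 9695 genes passed in shAjuba1 (2 to 7 of the 10), 182 to 4983 in shAjuba2 (0 to 1) and 412 to 988 in Ajuba OE (0 to 0). The ranges were 2177 to 5961 in shAjuba1 against shAjuba2 (2 to 5 of the 10), 3010 to 5369 in shScrambled against Parental (2 to 2), 14 to 985 in Control against Parental (0 to 2) and 8991 to 11649 across the 6 lines (5 to 10). The highest counts of shAjuba2 and of Control against Parental came without replicate 2 of shAjuba2 and of Control.

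Signs changed with Parental as the control for CTNNB1 in shAjuba1 (-0.24), NECTIN1 (-0.31) and NECTIN2 (-0.10) in shAjuba2, and CTNNB1 (-0.31), CTNND1 (-0.11), JUP (-0.22), VCL (-0.0641) and NECTIN1 (-0.50) in Ajuba OE. The other changes of sign were in values near 0. In Ajuba OE they were CTNNB1 (-0.0415) and JUP (-0.0185) scaled by library size alone and CTNNA1 (0.00331) with every gene kept. NECTIN2 in shAjuba2 was at -0.0624 with the block. JUP in shScrambled against Parental was at -0.0112 with DESeq2 size factors, -0.00919 with every gene kept, -0.0112 by DESeq2 and -0.0183 with all samples fitted. With 1 sample left out, NECTIN2 in shAjuba2 ranged from -0.0410 to 0.11 and NECTIN3 from -0.19 to 0.00426. In Ajuba OE CTNNA1 ranged from -0.0756 to 0.0493, CTNNB1 from -0.0817 to 0.11 and JUP from -0.00925 to 0.14. In shScrambled against Parental JUP ranged from -0.0914 to 0.0947, VCL from -0.0637 to 0.0123 and AFDN from -0.0680 to 0.0316, and in Control against Parental AFDN ranged from -0.00481 to 0.0914.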
